A study of Homo sapiens with 8 samples.

Results

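Notch signalling genes were followed in SW480 cells, a human cell line grown from a colorectal cancer, after silencing of TCF7L2, the TCF/LEF transcription factor that partners beta-catenin in Wnt signalling. The 10 members were taken by symbol from the deposited table of 18656 genes: the receptors NOTCH1, NOTCH2 and NOTCH3, the ligands JAG1, JAG2 and DLL4, and the target genes HES1, HES4, HES5 and HEY1. All 10 were listed, and 9 passed the filter on low values, a TPM (length-normalised transcript share) of 1 or more in at least 2 libraries. NOTCH3 did not. Small interfering RNA (siRNA) against TCF7L2 had acted for 24, 48 or 72 h in 6 of the 8 libraries, with 2 libraries a time, and the other 2 held cells with a negative-control siRNA, labelled 0 h. Every group was transfected by the same lipid reagent and came from the same line. The control exists at 0 h only, so against it silencing and time since transfection cannot be told apart. At 72 h against 24 h all cells compared received the TCF7L2 siRNA. Neither of these times has its own control, so longer silencing and longer time since transfection cannot be told apart there either. Nothing in the labels says that the replicates came from different cultures, and the p-values cover no more than the spread among the samples at hand, which may be technical.

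In Notch signalling, a ligand of the Jagged or Delta-like family on one cell binds a Notch receptor on its neighbour. The receptor is then cleaved, and its intracellular part enters the nucleus, joins the DNA-binding protein RBPJ with a Mastermind coactivator and switches on target genes, above all those of the HES and HEY families, which encode transcriptional repressors. In the intestinal epithelium the pathway is known for maintaining stem and progenitor cells and for restraining the secretory lineage, partly through repression of ATOH1 by HES1.

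The upstream sequences of the 3 HES members are shown because they carry the RBPJ core through which Notch acts, while HES4 and HES5 fell at 72 h and HES1 was not called. Each is the 250 bases before the gene start of RefSeq, on the strand of the gene (RefSeq sequence, GRCh38.p14), with capitals marking the RBPJ core TGGGAA and the TCF/LEF cores CTTTGT and CTTTGA, on either strand.
HES1 (chr3:194135898-194136147, plus strand): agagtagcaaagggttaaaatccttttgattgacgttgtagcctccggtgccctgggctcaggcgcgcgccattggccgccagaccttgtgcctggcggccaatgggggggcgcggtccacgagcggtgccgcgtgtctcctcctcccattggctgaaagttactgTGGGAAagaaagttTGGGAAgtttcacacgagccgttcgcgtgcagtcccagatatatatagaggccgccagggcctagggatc
HES4 (chr1:1000098-1000347, minus strand): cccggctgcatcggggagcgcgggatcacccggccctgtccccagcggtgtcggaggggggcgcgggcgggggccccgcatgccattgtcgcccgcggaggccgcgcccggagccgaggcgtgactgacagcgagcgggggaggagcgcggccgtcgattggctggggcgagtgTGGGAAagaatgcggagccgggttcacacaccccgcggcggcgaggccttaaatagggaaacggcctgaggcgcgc
HES5 (chr1:2530264-2530513, minus strand): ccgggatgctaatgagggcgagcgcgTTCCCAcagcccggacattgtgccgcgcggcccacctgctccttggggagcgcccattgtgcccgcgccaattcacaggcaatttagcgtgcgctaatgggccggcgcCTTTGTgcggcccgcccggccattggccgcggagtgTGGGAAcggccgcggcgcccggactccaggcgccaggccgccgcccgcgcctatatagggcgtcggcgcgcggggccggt
The longer form GTGGGAA began 85, 77 and 81 bases upstream of the RefSeq start in HES1, HES4 and HES5. The gene starts of GENCODE release 29, used for the gene positions below, lie 3, 75 and 18 bases from those of RefSeq. Of the HES4 window 75 bases lie within the GENCODE gene, so that its GTGGGAA begins 2 bases before that start, against 82 bases in HES1 and 99 in HES5. HES1 held a second TGGGAA 70 bases upstream on the same strand, and HES5 held a second one on the other strand, 224 bases upstream, which also matched GTGGGAA. Upstream windows were searched for 9 members. HEY1 was left out of the search, so nothing is said here about motifs upstream of it. Of these, the 3 receptor and 3 ligand windows held no TGGGAA on either strand. Of 35116 windows of the same length, 20.8% held TGGGAA, 5.43% held GTGGGAA and 2.90% held TGGGAA at least 2 times. The N box CACNAG, a sequence bound by HES repressors, was matched 3 times in HES1 and once in NOTCH3, against 32.0% of all windows with a match. CTTTGT was matched once, in HES5 (13.7% of all windows), and CTTTGA (11.2%) and the E box CACGTG (6.34%) in none of the 9. CTTTGT and CTTTGA differ in their last base, and TGGGAA lies within GTGGGAA. These matches are a description of letters in a window.

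**Figure D1:**
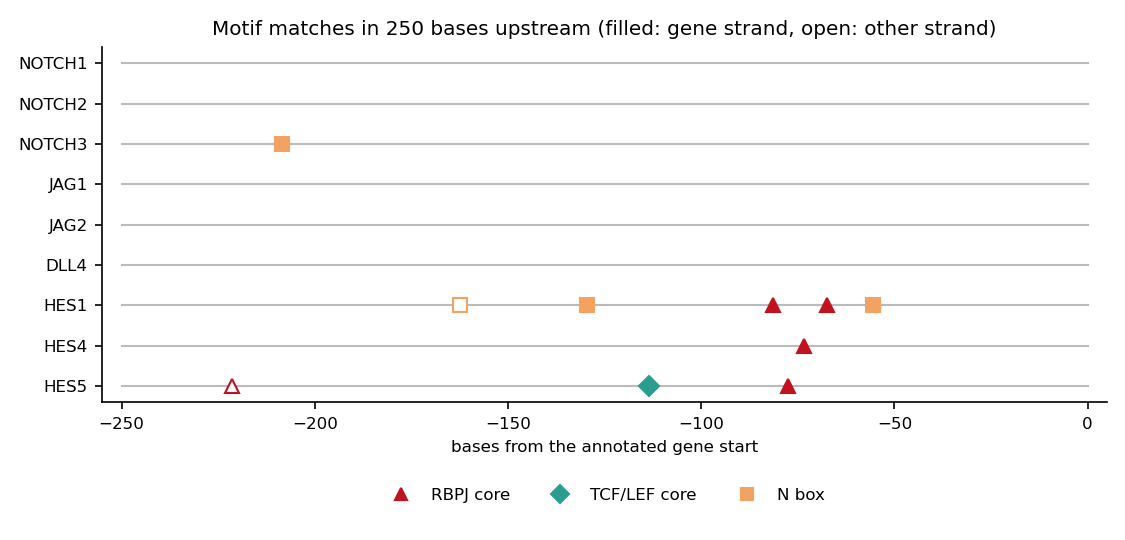
Positions of motif matches in the 250 bases upstream of the RefSeq gene start of 9 members, in bases from the start; triangles are the RBPJ core, diamonds the TCF/LEF core and squares the N box, filled on the strand of the gene and open on the other. HES1, HES4 and HES5 each carry an RBPJ core within 90 bases of the start, and the receptor and ligand windows carry none.

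Levels below are scaled TPM, that is, the deposited TPM divided by the library's median ratio to the average profile, a factor between 0.812 and 1.06. Listed TPM summed to 352455.7 in the second 72 h library, which stands apart, and to 448107.5 to 485601.5 in the other 7. On the TPM as deposited the median gene changed by -0.19 on the log2 scale at 72 h against 0 h, and by -0.02 after scaling. Log2 changes are those of scaled TPM + 1, which understates the change of low genes, and are given ± standard error (SE) from one limma fit to all 8 libraries. Adjusted p-values are limma's, Benjamini-Hochberg over 11894 genes, with a threshold of 0.05. The depth of the libraries is unknown because TPM keeps none. The epithelial markers summed to 3868 to 4057 scaled TPM at 72 h and 3053 to 3096 at 0 h, with 5 of the 7 markers wholly higher at 72 h. VIL1 overlapped, and the intestinal transcription factor CDX2 lay wholly lower, with 5.44 and 6.35 scaled TPM at 72 h and 8.20 and 8.24 at 0 h. All 5 leukocyte and all 5 endothelial markers were below 1 TPM in every library. The 5 fibroblast markers summed to 41.8 to 47.1 at 72 h and 9.97 to 11.9 at 0 h. Of them 4 lay wholly higher at 72 h and 0 wholly lower, where 35.5% and 40.1% of all genes tested did so. Among the 4 was PDGFRA, near the floor at 0.00961 and 0.0123 scaled TPM at 72 h and 0 at 0 h. It was below the filter that the genes of these shares had passed. Most of the sum was LUM, at 7.5 to 45.0 TPM as deposited across libraries, while PDGFRA did not exceed 0.13 TPM. The part of these shifts in the results was not tested. In bulk samples, fewer cells of a type and less RNA per cell cannot be told apart.

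The targeted gene TCF7L2 had 6.55 and 7.08 scaled TPM at 0 h, 5.87 and 5.18 at 24 h, 4.70 and 3.85 at 48 h, then 3.91 and 4.35 by 72 h. The libraries given its siRNA all lay below both controls. Its log2 change against 0 h was -0.26 ± 0.11 at 24 h (limma adjusted p = 0.286), -0.57 ± 0.11 at 48 h (adjusted p = 0.00653), then -0.61 ± 0.11 by 72 h (adjusted p = 0.00151), and omitting the second 48 h library ended the 48 h call (adjusted p = 0.0524).

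Among the 9 tested members, 5 fell and 1 rose at 72 h against 0 h, where 28% of all genes tested were called lower and 24.2% higher. At 48 h 3 fell and 1 rose, with 12% and 11.4% of all genes called lower and higher. At 24 h no member was called by limma, where 0.614% and 0.429% of all genes were called higher and lower. An unadjusted limma p under 0.05 was found for 3 of the 9 members and for 1950 of the 11894 genes tested. Already at 24 h, however, 6 of the 9 members had both siRNA libraries below both control libraries and 0 had both above, where 24.9% of all genes lay wholly below and 24.9% wholly above. At 48 h 6 members lay wholly below and 1 wholly above the controls (35.7% and 30.7% of all genes), and at 72 h 6 and 2 (40.1% and 35.5%). The median log2 change of the 9 was -0.12 at 24 h, -0.14 at 48 h and -0.52 at 72 h, beside -0.00, -0.02 and -0.02 for all genes. These comparisons share their 2 control libraries. Without them, at 72 h against 24 h, 6 members fell and 2 rose, where 27.1% and 23.1% of all genes were called lower and higher, and 6 lay wholly below and 2 wholly above (39.2% and 35.2% of all genes). Of the steps between, 48 h against 24 h had 1 member lower and 1 higher (7.15% and 7.23% of all genes), with 4 wholly below and 3 wholly above (32.8% and 26.7%). No member was called lower at that step on the TPM as deposited, nor without the first 24 h, the first 48 h or the second 48 h library. At 72 h against 48 h 4 members were lower and 0 higher (20.8% and 19.3% of all genes), with 6 wholly below and 1 wholly above (35% and 34.9%), and the number called was 3 to 7 under the alternatives.

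**Figure D2:**
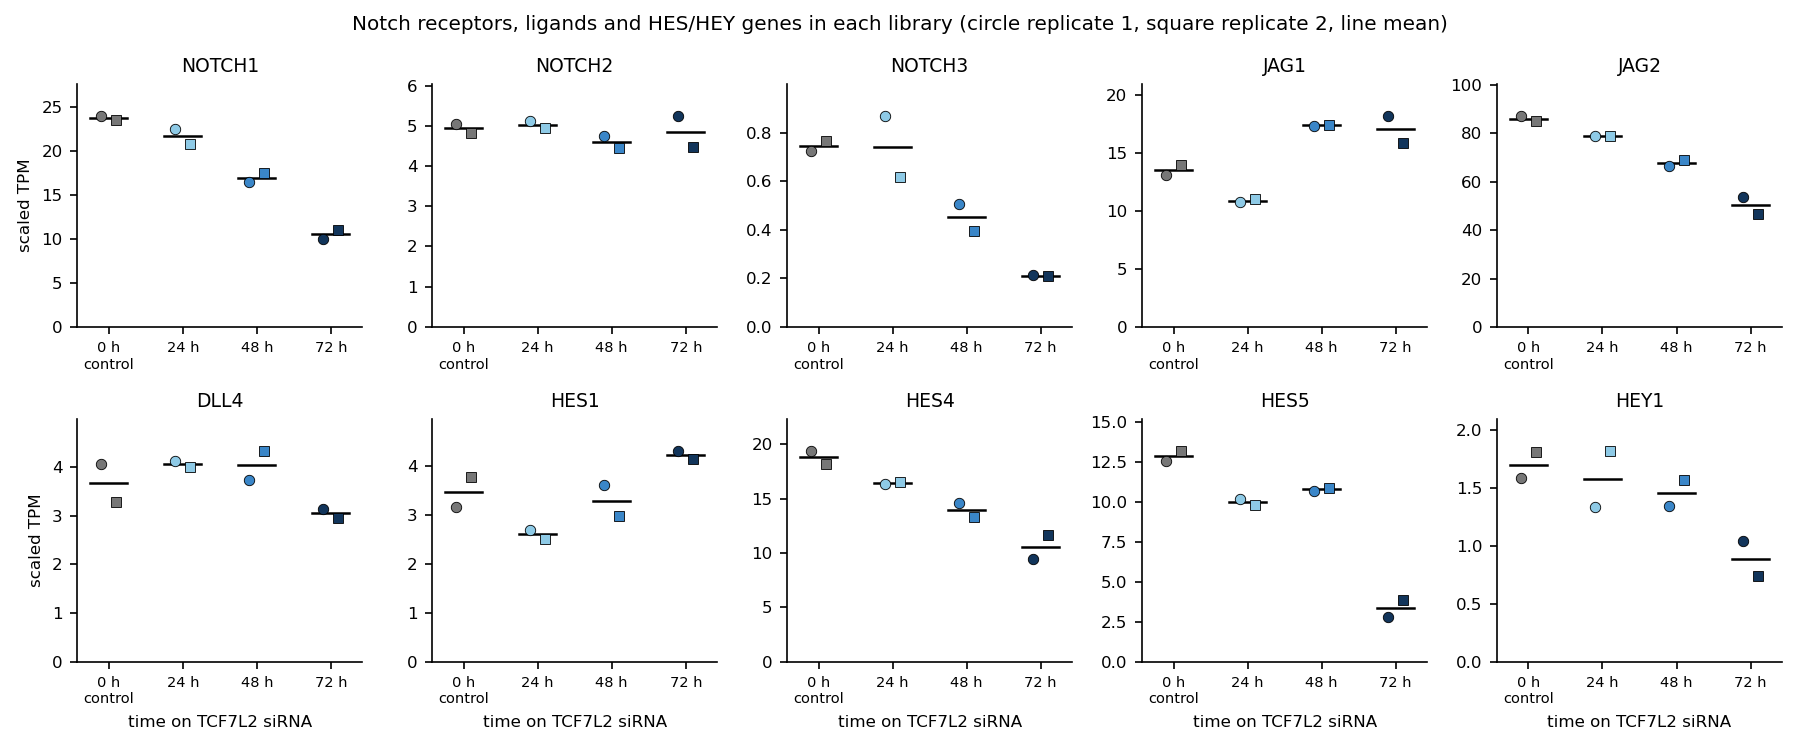
Scaled TPM of the 10 members in each of the 8 libraries, by time on TCF7L2 siRNA, with the negative-control siRNA at 0 h; circles are replicate 1, squares replicate 2 and lines the group mean, on a separate axis from 0 for each gene. NOTCH1, JAG2 and HES4 step down with time, HES5 is low at 72 h alone, and JAG1 and HES1 are lowest at 24 h.

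In control cells the ligand gene JAG2 had the highest level, 86.1 ± 1.55 scaled TPM (SD, n = 2 here and below), followed by NOTCH1 at 23.7 ± 0.329, HES4 at 18.8 ± 0.849, JAG1 at 13.6 ± 0.597 and HES5 at 12.9 ± 0.445. NOTCH2 at 4.94 ± 0.160, DLL4 at 3.68 ± 0.563, HES1 at 3.48 ± 0.426, HEY1 at 1.70 ± 0.159 and NOTCH3 at 0.746 ± 0.0298 followed. The libraries of JAG1 overlapped those of HES5 in this order, and the libraries of DLL4 those of HES1, and no other neighbours overlapped. At 72 h JAG2 was still the highest at 50.2 ± 5.02, JAG1 was next at 17.0 ± 1.62, and NOTCH1 at 10.6 ± 0.723 and HES4 at 10.5 ± 1.60 overlapped. HES5 at 3.33 ± 0.724 then lay below HES1 at 4.24 ± 0.110 and overlapped DLL4 at 3.05 ± 0.133.

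The receptor gene NOTCH1, whose product is a single-pass membrane protein released by proteolysis (chromosome 9, 136494433 to 136545786, minus strand; GENCODE release 29, GRCh38), fell at 48 and at 72 h. It had 24.0 and 23.5 scaled TPM at 0 h, 22.6 and 20.9 at 24 h, 16.5 and 17.5 at 48 h, then 10.0 and 11.1 by 72 h. No library of one time overlapped those of another. Its log2 change against 0 h was -0.12 ± 0.07 at 24 h (limma adjusted p = 0.449), -0.46 ± 0.07 at 48 h (adjusted p = 0.00265), then -1.10 ± 0.07 by 72 h (adjusted p = 3.39e-06). Between siRNA times it fell by 0.34 at 48 h against 24 h (limma adjusted p = 0.0174), then by 0.64 at 72 h against 48 h (adjusted p = 0.000219). On the TPM as deposited the 48 h value against 0 h was -0.46 and missed the threshold (adjusted p = 0.0517). The step of 48 h against 24 h also missed it as deposited (limma adjusted p = 0.531) and without the first 24 h (0.128), the first 48 h (0.103) or the second 48 h library (0.0578).

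NOTCH2, a second receptor gene, had 5.05 and 4.82 scaled TPM at 0 h, 5.13 and 4.93 at 24 h, 4.76 and 4.45 at 48 h, then 5.24 and 4.47 by 72 h. The 48 h libraries lay below those of 0 and 24 h, and of the 72 h libraries 1 lay within the 48 h range and 1 above all others. The 48 h log2 change was -0.08 ± 0.10 (limma adjusted p = 0.577). At 72 h the change was -0.02 ± 0.10 (limma adjusted p = 0.867), with a 95% interval of -0.25 to 0.20, which does not reach the change of NOTCH1. NOTCH2 is uncertain, because the partial NOTCH2NL copies of the human genome are nearly identical to it. No NOTCH2NL symbol is listed in the deposited table, and how reads shared with the copies were counted is not known. NOTCH3 stayed below 1 TPM, with 0.725 and 0.767 scaled TPM at 0 h, 0.868 and 0.615 at 24 h, 0.506 and 0.397 at 48 h, then 0.211 and 0.209 by 72 h. The 48 and 72 h libraries lay below all others. It was not tested in the fit above, and without the filter its 72 h log2 change was -0.53 (limma adjusted p = 0.00679).

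The Jagged ligand genes moved in opposite directions from 48 h on. JAG2 (chromosome 14, 105140981 to 105168824, minus strand) had 87.2 and 85.0 scaled TPM at 0 h, 78.9 in each library at 24 h, 66.5 and 68.9 at 48 h, then 53.8 and 46.7 by 72 h. Each time lay wholly below the one before. Its log2 change against 0 h was -0.12 ± 0.07 at 24 h (limma adjusted p = 0.387), -0.34 ± 0.07 at 48 h (adjusted p = 0.00582), then -0.77 ± 0.07 by 72 h (adjusted p = 1.38e-05), and on the TPM as deposited the 48 h call was lost (adjusted p = 0.207). JAG2 shares 469 exonic bases with a transcript on the same strand, AL512356.1, and its level is uncertain to that extent.

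JAG1 (chromosome 20, 10637684 to 10673999, minus strand), the ligand whose loss causes Alagille syndrome, had 13.1 and 14.0 scaled TPM at 0 h, 10.7 and 11.0 at 24 h, 17.4 and 17.4 at 48 h, then 18.2 and 15.9 by 72 h. The 24 h libraries were the lowest, and the 48 and 72 h libraries the highest. Against 0 h the log2 change was -0.29 ± 0.08 at 24 h (limma adjusted p = 0.112), 0.34 ± 0.08 at 48 h (adjusted p = 0.0148), then 0.31 ± 0.08 by 72 h (adjusted p = 0.00953). At 72 h against 24 h, where all cells had the TCF7L2 siRNA, it was 0.60 ± 0.08 (limma adjusted p = 0.00022), and at 48 h against 24 h 0.63 ± 0.08 (adjusted p = 0.00143). The rise against 0 h depended on the scaling and on single libraries: as deposited it was 0.34 for 48 h (adjusted p = 0.206) and 0.13 for 72 h (adjusted p = 0.551). Omitting either first library, of 0 h or of 72 h, (adjusted p = 0.0689 and 0.0661) also ended the 72 h call, and the 48 h call was lost without the first 0 h (0.101), the first 48 h (0.0689) or the second 48 h library (0.075). The call at 72 h against 24 h held in 19 of 19 alternatives. An antisense gene, AL050403.2, shares 79 exonic bases with JAG1, and another, AL158212.2, shares 300 with TCF7L2. No source used here states whether counting used strand.

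DLL4, a Delta-like ligand best known from sprouting blood vessels, had 4.07 and 3.28 scaled TPM at 0 h, 4.13 and 4.001 at 24 h, 3.74 and 4.34 at 48 h, then 3.14 and 2.95 by 72 h. Only the 72 h libraries lay below all others. Its 72 h change of -0.20 ± 0.12 against 0 h was not called (limma adjusted p = 0.168), and that of -0.32 ± 0.12 against 24 h was (adjusted p = 0.0408), but was lost in 8 of 18 alternatives, among them without either 24 h library (adjusted p = 0.142 and 0.109) or either 72 h library (0.0693 and 0.134). The 5 endothelial markers together had 0.382 to 0.577 scaled TPM at 72 h and 0.0947 to 0.115 at 0 h. Of them 3 lay wholly higher at 72 h and 0 wholly lower (35.5% and 40.1% of all genes tested). All 5 were below 1 TPM in every library, unlike the genes of these shares. KDR and TEK, the 2 that overlapped, did not exceed 0.04 TPM as deposited.

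**Figure D3:**
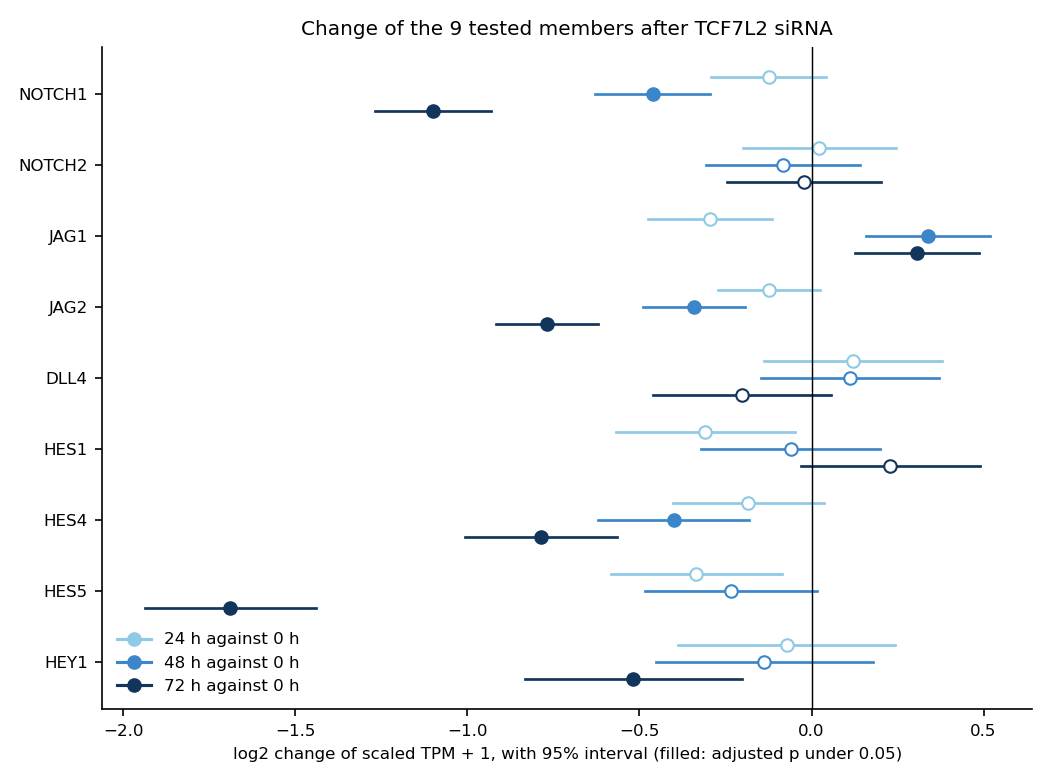
Log2 change of scaled TPM + 1 against 0 h for the 9 tested members at 24, 48 and 72 h, from the limma fit to all 8 libraries; bars are 95% intervals and filled points have an adjusted p under 0.05. HES5 and NOTCH1 lie farthest to the left at 72 h (-1.69 and -1.10), and JAG1 lies to the right of 0 at 48 and 72 h.

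Of the target genes, HES5 (chromosome 1, 2528745 to 2530245, minus strand), a repressor of neuronal and secretory differentiation factors, had the largest change of the 9 tested members at 72 h and no call before it. It had 12.5 and 13.2 scaled TPM at 0 h, 10.2 and 9.80 at 24 h, 10.7 and 10.9 at 48 h, then 2.82 and 3.84 by 72 h. The 72 h libraries lay far below the rest, while the 24 and 48 h libraries lay just below the controls. Its log2 change against 0 h was -0.34 ± 0.11 at 24 h (limma adjusted p = 0.173), -0.23 ± 0.11 at 48 h (adjusted p = 0.156), then -1.69 ± 0.11 by 72 h (adjusted p = 2.72e-06). At 72 h against 48 h it was -1.46 ± 0.11 (limma adjusted p = 2.45e-05), whereas 48 h against 24 h was 0.10 ± 0.11 (adjusted p = 0.591). The 72 h level was 0.259 of the control level, and leaving out any 1 library or changing the scaling did not end the call.

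HES4 (chromosome 1, 998962 to 1000172, minus strand), a HES gene present in humans and absent from mice, fell at 48 and at 72 h. It had 19.4 and 18.2 scaled TPM at 0 h, 16.3 and 16.5 at 24 h, 14.6 and 13.4 at 48 h, then 9.40 and 11.7 by 72 h, with no overlap between times. The log2 change against 0 h was -0.18 ± 0.10 at 24 h (limma adjusted p = 0.392), -0.40 ± 0.10 at 48 h (adjusted p = 0.0173), then -0.79 ± 0.10 by 72 h (adjusted p = 0.00014). The call at 48 h did not hold without the filter (limma adjusted p = 0.0742), as deposited (0.111), without the first or second 0 h library (0.102 and 0.0522) and without the second 48 h library (0.106).

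HES1 (chromosome 3, 194136145 to 194138732, plus strand), the HES gene most closely tied to the intestinal progenitor state, was called at no time against 0 h. It had 3.18 and 3.78 scaled TPM at 0 h, 2.70 and 2.51 at 24 h, 3.62 and 2.98 at 48 h, then 4.32 and 4.16 by 72 h. The 24 h libraries were the lowest and the 72 h libraries the highest, with those of 0 and 48 h overlapping between them. Against 0 h none of the changes was called: -0.31 ± 0.12 at 24 h (limma adjusted p = 0.221), -0.06 ± 0.12 at 48 h (adjusted p = 0.737), then 0.23 ± 0.12 by 72 h (adjusted p = 0.125, 95% interval -0.03 to 0.49). The rise at 72 h against 24 h was called, at 0.54 ± 0.12 (limma adjusted p = 0.00374), and held in 18 of 18 alternatives.

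HEY1, a HES-related repressor prominent in the vasculature, had 1.58 and 1.81 scaled TPM at 0 h, 1.33 and 1.82 at 24 h, 1.34 and 1.57 at 48 h, then 1.04 and 0.739 by 72 h. The 72 h libraries lay below all others, those of 48 h lay below those of 0 h, and the 24 h libraries spanned both of these. At 72 h against 0 h its log2 change was -0.52 ± 0.14 (limma adjusted p = 0.0116), and omitting either second library, of 0 h or of 72 h, ended the call (adjusted p = 0.073 and 0.0727). With a pseudocount of 0.1 the change was -0.88. At 72 h against 24 h it was -0.44 ± 0.14 (limma adjusted p = 0.0244), lost without the filter (adjusted p = 0.0603), the second 24 h library (0.177) or the second 72 h library (0.135).

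Because each library's scaling cancels in a ratio of 2 genes, the ratios of TPM as deposited show the divergence within each family directly. The ratio of JAG1 to JAG2 was 0.151 and 0.164 at 0 h, 0.136 and 0.139 at 24 h, 0.261 and 0.253 at 48 h, then 0.338 and 0.340 by 72 h, so that the times did not overlap and the replicates lay close together. HES1 to HES5 stood at 0.253 and 0.287 at 0 h, 0.266 and 0.257 at 24 h, 0.338 and 0.274 at 48 h, then 1.53 and 1.08 by 72 h, where HES1 exceeded HES5 in both libraries. For HES1 to HES4 the values were 0.459 and 0.357 at 72 h and 0.164 and 0.208 at 0 h, and for NOTCH2 to NOTCH1 0.522 and 0.404 at 72 h and 0.211 and 0.205 at 0 h. A ratio shows unequal change and does not say which gene moved. These ratios were computed after the data had been seen and carry no test.

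**Figure D4:**
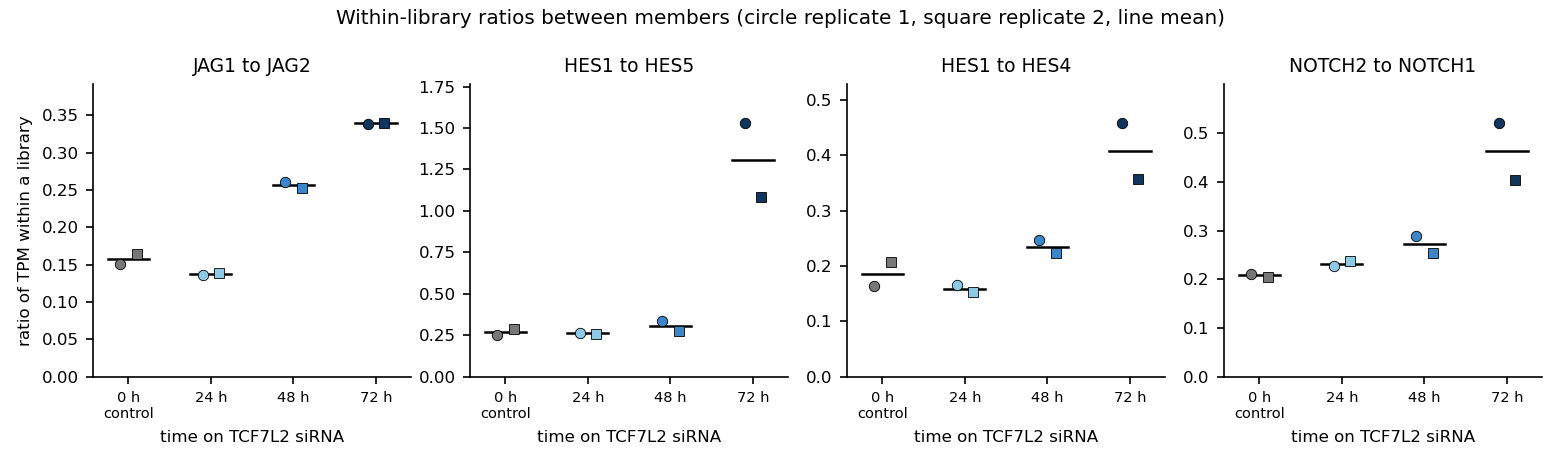
Ratio of TPM as deposited between 2 members within each library, by time on TCF7L2 siRNA, with the negative-control siRNA at 0 h; circles are replicate 1, squares replicate 2 and lines the group mean. JAG1 to JAG2 is highest at 72 h (0.338 and 0.340), and HES1 to HES5 is above 1 in the 72 h libraries alone.

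The remaining Notch receptors and ligands had 4 of 5 genes tested, and at 72 h against 0 h 3 were lower and 0 higher (28% and 24.2% of all genes), with a median log2 change of -0.51. The Delta-like ligand gene DLL1 had 0.500 and 0.788 scaled TPM at 72 h and 1.38 and 1.69 at 0 h (log2 change -0.63 ± 0.14, limma adjusted p = 0.00405). The Delta-like homologue gene DLK2 (-0.58 ± 0.15) and NOTCH4 (-0.43 ± 0.13) fell too. DLL3 was tested and not called (-0.10 ± 0.10, limma adjusted p = 0.446). The 3 that fell were all below 2 scaled TPM, and the calls were lost without the second 0 h or first 72 h library for DLK2 (adjusted p = 0.0596 and 0.0567) and without the first 0 h or second 72 h library for NOTCH4 (0.128 and 0.0743).

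Other HES and HEY genes and Notch targets had 6 of 9 genes tested, of which 3 were lower and 0 higher at 72 h (28% and 24.2% of all genes), with a median of -0.28. HEYL, the third HEY-family gene, had 0.558 and 0.862 scaled TPM at 72 h, against 3.96 and 3.68 at 0 h. Its log2 change was -1.50 ± 0.13 (limma adjusted p = 1.2e-05) and already -0.53 ± 0.13 at 48 h (adjusted p = 0.0153), with the 48 h call lost without the filter and without any one of the 0 h or 48 h libraries (adjusted p from 0.0513 to 0.0926). HES6, which antagonises HES1 and was the most abundant HES gene, had 44.2 and 39.0 scaled TPM at 72 h and 60.2 and 66.2 at 0 h (-0.59 ± 0.09, limma adjusted p = 0.00054). HES2 was the other lower gene (-0.36 ± 0.11, limma adjusted p = 0.0217). NRARP, a feedback inhibitor and direct target of the pathway, was lower at 48 h (-0.38 ± 0.09, limma adjusted p = 0.0175) but not at 72 h (-0.15 ± 0.09, adjusted p = 0.197). The 48 h call did not hold in 6 alternatives, among them without any one of the 0 h or 48 h libraries (adjusted p from 0.0504 to 0.0977). HES7 averaged 0.752 scaled TPM at 48 h and 1.61 at 0 h, and was called lower there (-0.56 ± 0.17, limma adjusted p = 0.0404). That call was lost in 8 alternatives, among them without the second 0 h (adjusted p = 0.253), either 24 h (0.0611 and 0.0608) or the second 48 h library (0.217). At 72 h its change against 0 h was 0.14 ± 0.17 (limma adjusted p = 0.529). The intestinal stem cell gene OLFM4, which Notch is known to control, reached no more than 0.02 TPM, and HES3 was listed at 0.

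Of 14 tested genes that cut or glycosylate Notch proteins, 5 were higher and 3 lower at 72 h (24.2% and 28% of all genes), with a median of 0.02. ADAM10, the protease of the first activating cut, had 55.3 and 49.7 scaled TPM at 72 h and 37.6 and 33.3 at 0 h (log2 change 0.55 ± 0.07, limma adjusted p = 0.000202). NCSTN, the nicastrin subunit of gamma-secretase, rose by 0.67 ± 0.12 and FURIN, which cuts the receptor during its maturation, by 0.42 ± 0.08. APH1A, another gamma-secretase subunit, fell by 0.34 ± 0.06. As deposited the rises of ADAM10 and FURIN were 0.36 and 0.24 and missed the threshold (limma adjusted p = 0.0542 and 0.224).

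Genes of Notch endocytosis and turnover had 4 of 12 tested genes higher and 3 lower (24.2% and 28% of all genes), with a median of 0.08. FBXW7, the ubiquitin ligase subunit that marks the active Notch fragment for destruction, had 43.7 and 40.7 scaled TPM at 72 h and 24.7 and 24.9 at 0 h (log2 change 0.74 ± 0.07, limma adjusted p = 1.87e-05). The endocytic inhibitor NUMB rose by 0.55 ± 0.06, with an adjusted p of 5.38e-05, and by 0.36 as deposited (limma adjusted p = 0.0584). The Deltex gene DTX2 had 13.4 and 15.1 at 72 h and 7.99 and 6.72 at 0 h (0.87 ± 0.12). MIB1, the ubiquitin ligase that makes ligands competent to signal, fell by 0.53 ± 0.06, with an adjusted p of 8.63e-05.

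In the nuclear complex and its corepressors 3 of 13 tested genes were higher and 2 lower at 72 h (24.2% and 28% of all genes), with a median of 0.04. The Mastermind coactivator gene MAML3 rose by 0.56 ± 0.14 and the corepressor CIR1 by 0.46 ± 0.09. The acetyltransferase gene KAT2B, counted among the 2 lower genes, fell by 0.52 ± 0.13. It passed the filter through the 0 h libraries alone (1.18 and 1.61 TPM as deposited, against 0.51 to 0.97 in the siRNA libraries). A fall from 0 h was thus favoured in advance for KAT2B, and its call carries little weight. The call of CIR1 was lost on the TPM as deposited (limma adjusted p = 0.143). MAML2 was the other higher gene (0.48 ± 0.13). RBPJ itself, named here after its values were seen, had a change of 0.16 ± 0.08 (limma adjusted p = 0.106). At 24 h none of the genes of these 5 groups was called by limma.

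**Figure D5:**
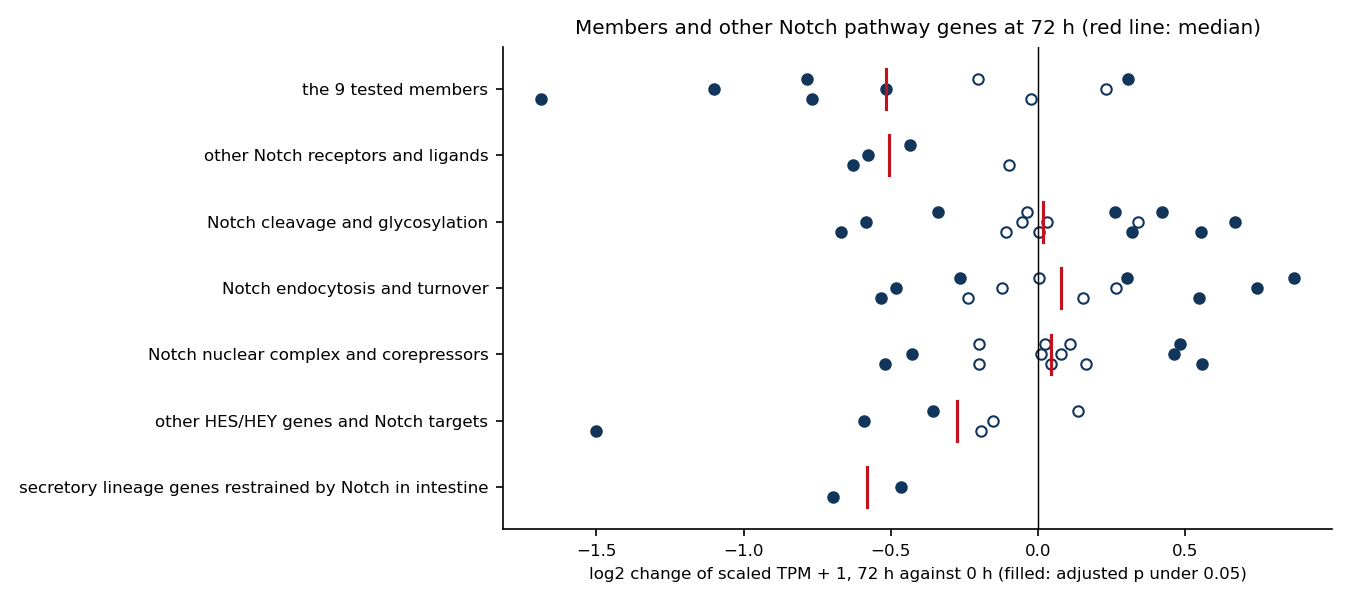
Log2 change of scaled TPM + 1 at 72 h against 0 h for the 9 tested members and for the tested genes of 6 further Notch pathway groups; each point is a gene, filled where the adjusted p is under 0.05, and red lines are medians. The members and the other receptors, ligands and HES/HEY genes lie mostly to the left of 0 (medians -0.52, -0.51 and -0.28), and the processing, turnover and nuclear groups lie on both sides.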

How the data were processed

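RNA was extracted from SW480 cells, depleted of ribosomal RNA and sequenced, per the labels' protocols. The authors deposited TPM per gene symbol, made with RSEM on hg19 per the submitters' processing notes, which also name FastQC, Trimmomatic, STAR, Picard and SAMtools. No source used here states versions, annotation or strand setting. TPM holds no depth, so no counting error could be given.

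For scaling, a library was divided by the median of its ratios to the average log profile, since the deposited TPM carried a median shift at 72 h and left limma with no gene-specific variance. With limma 3.58.1 (R 4.3.3) 1 model was fitted to log2(scaled TPM + 1) of all 8 libraries and 11894 genes, with a mean-variance trend, 4 residual and 5.48 prior degrees of freedom. The step was tested on simulated data with normal noise. Of planted 1.5-fold changes 71.6% to 83.6% were recovered, and 5 to 15 unchanged genes were called, depending on the comparison. Changes were planted only in genes above a minimum mean level, so calls of low genes such as HEY1 and DLL1 are not covered. The replicate numbers were not used to pair the samples in this model (see the closing section).

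Members, lists and tests were chosen with earlier results of these data known. Named genes were all members, TCF7L2, up to 4 genes per list with the smallest p in any comparison with 0 h, and the 3 genes most correlated with each of the 2 members of smallest adjusted p at 72 h. Some genes that this rule names are not reported here. Gene positions are those of GENCODE release 29 (GRCh38). Alternatives were a pseudocount of 0.1 or 5, a minimum TPM of 5 or none, no scaling, equal sums, quantile normalization, other variance models, the compared groups alone, the replicate block and leaving out each library.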

Additional observations from a re-analysis of the deposited data

How the results depend on the processing

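The number of members called at 48 h against 0 h was 4, and 0 on the TPM as deposited. Leaving out 1 library gave 2 to 4 there, the 2 without the first 0 h or the second 48 h library. At 72 h against 0 h the count was 6 and 5 to 6 without 1 library, at 72 h against 24 h it was 8, 6 to 8 without 1 library and 5 with a minimum TPM of 5, which leaves fewer members to test, and at 24 h it was 0 in all 19 alternatives. The steps of 48 h against 24 h and 72 h against 48 h had 2 and 4 members called, with 1 to 3 and 3 to 7 under the alternatives. The sign of uncalled changes turned for NOTCH2 at 24 h (0.02, against -0.0584 as deposited and -0.0177 with equal sums, and -0.00538 to 0.0487 without 1 library), and for HES7 at 72 h (-0.0206 after quantile normalization, -0.10 to 0.37 without 1 library). Without 1 library it also turned for NOTCH2 at 72 h against 0 h (-0.12 to 0.0710) and 24 h (-0.14 to 0.0483), DLL4 at 24 h (-0.00407 to 0.24) and 48 h (-0.0133 to 0.23), HES1 at 48 h (-0.17 to 0.0453) and HEY1 at 24 h (-0.21 to 0.0635), and the cause was not tested. For the members in the comparisons with 0 h and at 72 h against 24 h, 632 of the values under alternatives kept direction and call. There 12 turned sign, 27 lost the call and 1 gained it (DLL4 at 72 h against 0 h, limma adjusted p = 0.0475 after quantile normalization). The steps of 48 h against 24 h and 72 h against 48 h are not in these counts.

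Over all genes, 124, 2783 and 6213 were called at 24, 48 and 72 h against 0 h, and 3 to 291, 922 to 3191 and 4900 to 6248 under the alternatives. At 72 h 2880 were higher and 3333 lower, and as deposited 1253 and 3715. Same-numbered libraries deviated together with correlations of -0.09 to 0.11, so the numbers were not used as a pairing in the main fit. Such correlations cannot show whether same-numbered samples were handled together. With the replicate block the members called were 0, 4 and 6 at the 3 times against 0 h and 7 at 72 h against 24 h.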

Other observations

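Secretory lineage genes, which Notch is known to restrain in the intestine, were mostly silent: 2 of 8 passed the filter. The goblet cell peptide gene TFF3 had 21.4 and 18.2 scaled TPM at 0 h, 24.5 and 27.3 at 24 h, 26.4 and 32.1 at 48 h, then 10.1 and 13.7 by 72 h. It was higher at 48 h against 0 h (log2 change 0.54 ± 0.14, limma adjusted p = 0.0223) and lower at 72 h (-0.70 ± 0.14, adjusted p = 0.00248), and the 48 h call was lost without the filter (adjusted p = 0.127), the second 0 h (0.133) or the second 48 h library (0.149). GFI1, a transcription factor gene of the secretory lineage, had 3.19 and 2.83 scaled TPM at 72 h and 4.74 and 4.34 at 0 h (-0.47 ± 0.11, limma adjusted p = 0.00523). ATOH1, the gene that HES1 represses, reached 0.08 TPM at most and the mucin gene MUC2 0.4 TPM. At 72 h both lay wholly above the controls. MUC2 had 0.385 and 0.209 scaled TPM against 0.0286 and 0.0189 at 0 h, and ATOH1 had 0.0192 and 0.0985 against 0. Neither was tested at such low levels. The secretory genes SPDEF, NEUROG3, CHGA and FCGBP, also untested, overlapped the controls at 72 h.

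The 3 genes with the profile most like that of HES5 over the 8 libraries were the carboxylesterase gene CES1, the serine synthesis gene PSAT1 and CXXC5 (Pearson r of log2 scaled TPM from 0.993 to 0.998). CES1 averaged 11.6, 8.46, 9.62 and 2.71 scaled TPM at 0, 24, 48 and 72 h. ZNF787 and RGS16 were among the 3 most like NOTCH1 (r = 0.997 and 0.995), and RGS16 averaged 7.92, 6.40, 4.47 and 1.86. Among the genes tested, 308 and 598 had an r above 0.95 with HES5 and NOTCH1, and all share the same libraries and groups.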
